A study of Manacus vitellinus and Taeniopygia guttata with 24 samples.

Results

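Messenger RNA levels were measured in 2 wing muscles of golden-collared manakins and zebra finches, and 52 of the 14926 genes listed in at least 1 library were chosen by their RPKM as higher in the scapulohumeralis caudalis (SH) than in the pectoralis (PEC) in the manakin but not in the finch. A member had SH above PEC in all 6 manakins, and a group mean in SH at least 1.5 times that of PEC in both manakin treatments. It also averaged at least 5 RPKM in manakin SH and at least 2 RPKM over the 12 finch libraries, with a finch mean in SH less than 25% above that in PEC. RPKM are read counts scaled to the length of the gene and the size of the library, and a gene that a library did not list was read as 0. The members were thus selected on the SH and PEC values of both species, and these are described here without a test.

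The 24 libraries form 8 groups of 3. Male manakins carried a testosterone implant (+T) or a blank implant (-T). All zebra finches received testosterone, which followed a flutamide implant in one group (flutamide) and a blank implant in the other (T-only). The titles tell the finch groups apart only by a plus or a minus sign. Minus was read as flutamide from the titles and the protocol together, while the sample characteristics call those birds testosterone-free, contrary to the treatment protocol. Each bird gave both muscles.

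The PEC drives the downstroke of the wing and is the main flight muscle. The SH is a smaller muscle at the shoulder that retracts the wing, a movement used in the fast wing display of male golden-collared manakins, which zebra finches do not perform. Testosterone is a steroid hormone that acts on muscle, and flutamide is a drug that blocks its action.

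The lists identify genes by zebra finch Ensembl identifiers (release 68) in both species, without names, and 0 of the 14926 identifiers were in the reference gene table used here. Members are therefore given by identifier with no function, and neither gene lists nor markers of fibre types and other cell types were examined. The manakin values are also given per zebra finch gene, so levels set side by side across species carry an error that was not measured. Because whole muscles were sampled, fewer cells of a type and less RNA per cell cannot be told apart.

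The library sizes used in the RPKM, as recovered from them, were 9742206 to 15434530 reads in the 12 manakin libraries. In the 12 finch libraries they were 14341212 to 23458937. Whether they count all reads or aligned reads is not given in the sources used here. Reads in listed genes numbered 7807486 to 13571926 in the manakin libraries and 9644962 to 16487214 in the finch libraries. The SH library of +T manakin 2 stood apart: 349 genes reached 10 RPKM there and exceeded the next highest manakin value more than 8-fold, whereas the other 11 libraries had 0 to 4 such genes each. Of the 52 members, 2 were among those 349 genes.

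The 52 members were what remained of a larger set of genes higher in manakin SH. SH was above PEC in all 6 manakins for 1159 genes. Of these, 598 reached 1.5 times in both treatments and 427 also averaged at least 5 RPKM in SH. Among the 427, 93 averaged under 2 RPKM in the finch, 14 of them listed in no finch library. The other 334 divided by the finch ratio of SH to PEC into 282 genes at least 25% higher in SH, 238 of these at 1.5 times or more, and the 52 members. The median finch ratio over the 9594 finch genes for which it could be formed was 1.35, so the typical finch gene was itself above that bound.

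Some members lie close to the bounds that chose them. The lower of the +T and -T ratios was under 1.6 in 19 of the 52, and the values nearest to the bound of 1.5 were 1.51 inside and 1.49 outside. For the finch ratio, 8 members were at 1.2 or more, and the nearest values were 1.24 inside and 1.26 outside. The lowest mean in manakin SH was 5.57 RPKM, with 4.78 as the nearest value outside, and the lowest finch mean was 2.27 RPKM, with 1.93 outside.

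**Figure D1:**
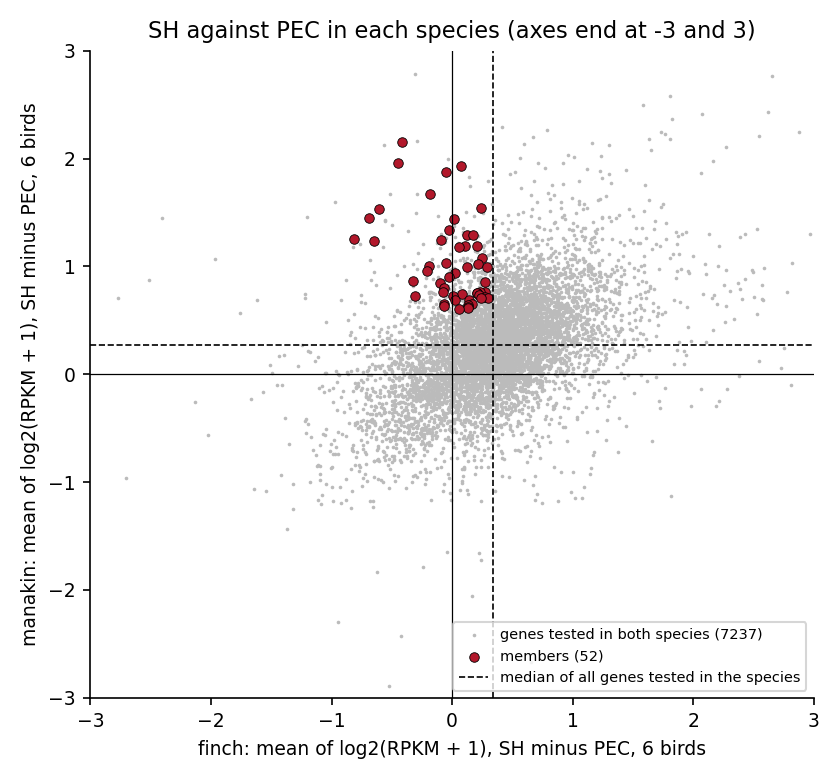
Mean difference between SH and PEC over 6 birds, on the log2(RPKM + 1) scale, in the manakin (vertical axis) against the finch (horizontal axis). Grey points are the 7237 genes tested in both species, red points the 52 members, and dashed lines the medians of all genes tested, 0.27 in the manakin and 0.34 in the finch; points beyond 3 on either axis are not drawn.

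In the manakin the members ranged from a 1.54-fold to a 14.5-fold ratio of mean SH to mean PEC, with a median of 2.02. The ratio was 2 or more in 27 members, 3 or more in 10 and 4 or more in 5. Over the 8965 manakin genes for which it could be formed, the median ratio was 1.26, so the typical manakin gene was also listed higher in SH. Per bird, the median difference of the members, SH minus PEC on log2(RPKM + 1), was 0.94, 1.46 and 0.73 in the +T manakins and 0.70, 0.64 and 0.83 in the -T manakins. The medians of all 8989 genes tested in the same birds were 0.37, 0.62 and 0.18 in +T and 0.01, 0.12 and 0.13 in -T. The distance of the members from all genes was thus 0.52 to 0.84 in the 6 birds. It was largest in +T bird 2, whose SH library stood apart.

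**Figure D2:**
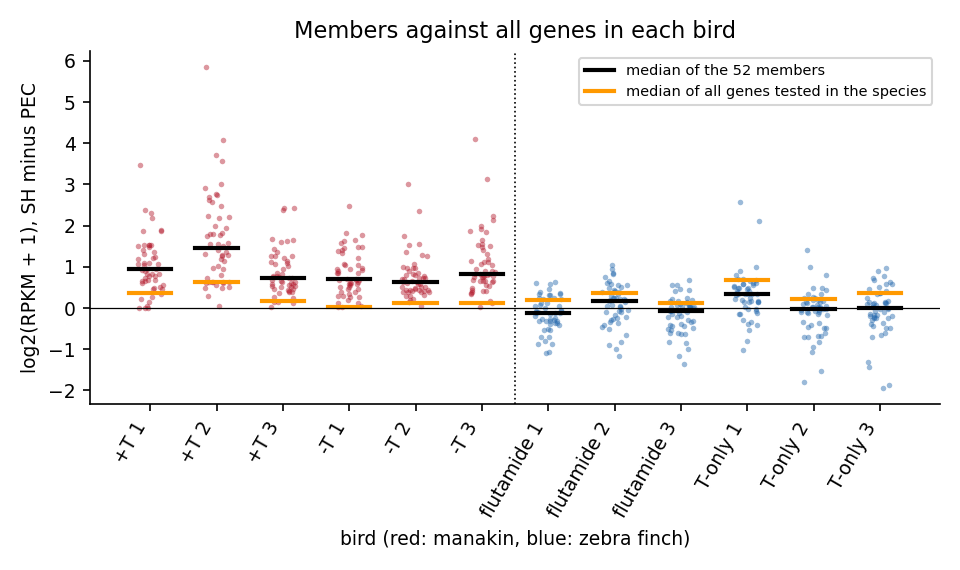
Difference between SH and PEC on log2(RPKM + 1) for each member (points) in each bird, manakins in red and finches in blue. The median of the members (black bars) lies above that of all genes tested (orange bars) by 0.52 to 0.84 in the 6 manakins and below it by 0.19 to 0.37 in the 6 finches.

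Which genes met the rule depended on the scaling. Median-ratio factors, which set the typical gene equal between libraries, averaged 1.1 for manakin SH against 0.914 for manakin PEC, and 1.16 for finch SH against 0.875 for finch PEC. After division by them, 43 genes met the rule, of which 18 were among the 52. All 34 members that no longer met it missed a manakin bound: 22 missed 1.5 times in +T, 20 missed it in -T and 20 had a bird with SH at or below PEC, with overlap among these. The mean of SH stayed above that of PEC in 52 of 52 after scaling, at a ratio of 1.28 to 10.7 (median 1.61). The rule had set a bound of 1.5 times, and the SH factors were 1.21 times those of PEC in geometric mean. Nothing is therefore read from the count of 52. The 18 kept members had a median ratio of 2.9 as deposited, and the 34 others one of 1.8.

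Single birds were also left out. This drops the clause on SH above PEC for a manakin left out and so loosens the rule, and it is not ranked against scaling. When each manakin was left out in turn, 54 to 73 genes met the rule, with 38 to 50 of the 52 members among them. Leaving out +T manakin 2 kept 42 members and leaving out -T manakin 3 kept 38. Without +T manakin 2 the median ratio of the members was 1.76, and 4 of them were below 1.5.

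In manakin SH the members spanned a wide range of levels. Their means ran from 5.57 to 944 RPKM with a median of 21.9, against a median of 12.5 RPKM over all 8989 genes tested. The mean was 100 RPKM or more in 8 members, 10 to 100 in 31 and below 10 in 13. In manakin PEC the member means ran from 0.932 to 445 RPKM, with a median of 12.1. Together the members took 0.565%, 0.807% and 0.352% of all RPKM in the +T SH libraries and 0.235%, 0.270% and 0.448% in the -T SH libraries. In PEC they took 0.239%, 0.234% and 0.179% in +T and 0.121%, 0.164% and 0.115% in -T. The +T 2 library held the highest of the SH shares, and the +T and -T ranges overlapped in SH but not in PEC. Without the most abundant member the PEC shares were 0.101% to 0.146% in +T and 0.106% to 0.144% in -T, which overlap.

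**Figure D3:**
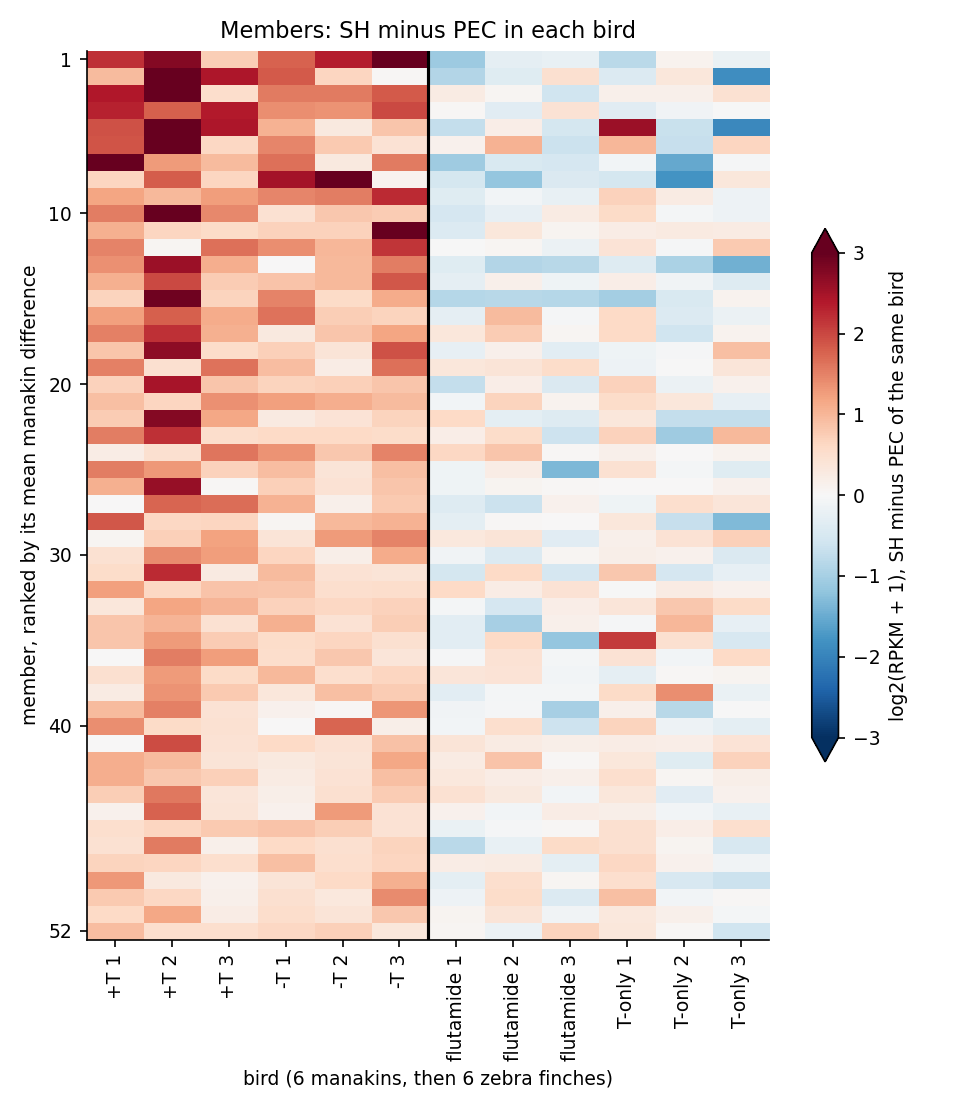
Difference between SH and PEC of the same bird on log2(RPKM + 1), one row for each of the 52 members, ranked by the mean over the 6 manakins. Red is higher in SH and blue higher in PEC; every manakin column is above 0 by the rule, while SH was higher for 19 to 39 of the 52 members in the single finches.

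ENSTGUG00000004627 had the largest mean difference of the members, at 2.15 ± 0.84 on log2(RPKM + 1) over the 6 manakins (SD, n = 6). Its SH levels were 6.29, 11.6 and 3.03 RPKM in +T and 6.21, 11.4 and 9.26 RPKM in -T. Its PEC levels were 0.596, 0.873 and 1.42 RPKM in +T and 1.10, 1.42 and 0.178 RPKM in -T. All 6 SH libraries were above all 6 PEC libraries, although the lowest PEC value rests on 2 reads. In the finch this gene ran the other way in mean, with a ratio of SH to PEC of 0.671, and SH was higher in 1 of 6 finches.

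ENSTGUG00000012728 came second in mean difference, at 1.96 ± 2.09 (SD, n = 6), and showed the largest spread between birds. Its SH levels were 20.7, 1904 and 90.3 RPKM in +T and 143, 43.9 and 29.6 RPKM in -T, against PEC levels of 10.2, 31.9 and 16.1 RPKM in +T and 39.5, 27.7 and 28.9 RPKM in -T. The value of 1904 RPKM comes from the library that stood apart. Without that bird the mean difference was 1.18 ± 0.95 (SD, n = 5), which ranked 11 among the members. The ratio of means was 14.5 with the bird and 2.68 without it, and SH in -T bird 3 exceeded its PEC by less than 1 RPKM.

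ENSTGUG00000012113 was the most abundant member. It was at 1579, 1714 and 743 RPKM in +T SH and at 142, 249 and 1235 RPKM in -T SH. In PEC it was at 756, 1104 and 499 RPKM in +T and at 87.3, 153 and 70.8 RPKM in -T. The -T SH library 3 was far above the other -T SH libraries. In the finch the gene was at 17.1 to 29.4 RPKM in all 12 libraries, with a ratio of SH to PEC of 1.11.

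The muscles separated completely in some members. In 10 of the 52, the lowest of the 6 SH libraries was above the highest of the 6 PEC libraries, against 2.01% of all genes tested; the rule used this contrast and nothing is read from the count. The SH level varied between the 6 manakins with a median coefficient of variation of 35.2% over the members, against 39.3% over the 7237 genes tested in both species. In PEC the medians were 34.1% for the members and 35.9% for those genes. The rule used the same values and set floors that those genes did not have to meet, so nothing is read from these medians. The SH library of +T bird 2 was the highest of the 6 SH libraries in 21 members, which is 40.4% of them, against 39.7% of all genes tested.

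Levels of the members in the finch were close to equal between its muscles. The finch ratio of SH to PEC ranged from 0.46 to 1.24 with a median of 1.03, was below 1 in 23 members and at 1 or more in 29. It was below 0.8 in 9 members. A member with equal RPKM in the finch muscles thus stood below the typical finch gene. By bird, SH was higher than PEC in 2 to 4 of the 6 finches for 36 members, in all 6 for 3 and in none for 2. After median-ratio scaling the finch ratios were 0.352 to 0.932, with a median of 0.793.

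Levels between species were set in part by the rule. It sets a higher floor for manakin SH than for the finch and caps finch SH relative to finch PEC. Mean RPKM was higher in manakin SH than in finch SH for 43 of the 52 members, 28 of them at 2 times or more. In PEC it was higher in the manakin for 24 of the 52, and 18 were at no more than 0.5 times the finch level. The median over members was 21.8 ± 4.25 RPKM in manakin SH and 11 ± 1.18 RPKM in finch SH, and 11.5 ± 1.86 RPKM in manakin PEC and 10.8 ± 1.13 RPKM in finch PEC (SD of the library medians, n = 6 each). Nothing is read from these counts, and the error from assigning manakin reads to finch genes was not measured.

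The recovered gene length, which the rule did not use, had a median of 1088 bases over the members and 1293 bases over the genes tested in the manakin, with quartiles of 829 and 2154 against 822 and 2038 bases. It was the same from both species in 52 of 52 members. Among 9953 genes whose length could be recovered in the manakin and in the finch, 8955 lengths were equal. In 975 others the length in one species was a multiple of that in the other. The count for the members is therefore not read as a check. Lengths were multiples of 3 in 63.5% of the members and in 76.7% of the genes tested in the manakin. In the manakin SH library with the fewest reads of a given member, those reads numbered 6 to 10298 with a median of 175 over the members. In at least 1 manakin library, 3 members were unlisted. Deviations from the group means over the 12 manakin libraries correlated between members with a median r of 0.17 over 1326 pairs, against 0.05 over all pairs of the 7237 genes tested in both species. These points share library and depth. The rule chose the members on these same libraries, with floors that all genes did not have to meet. Nothing is therefore read from the higher r.

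Treatment was a contrast between birds, and the rule did not compare its groups with each other. The floors of the rule used means over both treatments, however, and could be met through the birds of a single treatment. The rule also bounds PEC from above relative to SH in each treatment. Counts of members higher or lower in +T are therefore not free of the rule. The treatment contrast was tested over all genes with limma on log2(RPKM + 1), with Benjamini-Hochberg adjustment, and genes with an adjusted p below 0.05 were called. For 1 gene, an exact permutation test of 3 birds against 3 cannot give a two-sided p below 0.1. All 52 members passed the filter of 1 RPKM in at least 3 libraries in both species. In no comparison did a member pass the adjusted threshold, and the values that follow describe members that did not pass it.

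In manakin SH, +T against -T called 0 of the 52 members with limma, against 0.0222% of the 8989 genes tested. At an unadjusted p below 0.05 there were 9 members higher in +T, against 6.85% of all genes, and 1 lower, against 3.99%. With limma-voom on the recovered reads 0 members were called, against 0.0% of all genes, and 12 were below an unadjusted p of 0.05, against 11.6%. Of the 52 members 30 were higher in mean in +T, which is 57.7% against 58.2% of all genes, and 22 lower. The differences ranged from -0.92 to 2.88, and 9 members differed by at least 1 on the log2 scale, all with higher means in +T. Over all genes 13.2% differed by at least 1 in either direction. Some members met the manakin SH floor of 5 RPKM only through the +T birds. Among them were ENSTGUG00000005357 and ENSTGUG00000011739, with -T SH means of 2.18 and 1.08 RPKM. The SH counts by direction are therefore not free of the rule. Groups did not overlap in 5 members that were higher in +T, against 7.75% of all genes, and in 3 that were lower, against 6.8%. The median difference was 0.18 over the members and 0.11 over all genes, and both were -0.01 without the +T library 2.

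ENSTGUG00000005357 had the smallest p of the members in SH, and it met the manakin SH floor of the rule through the +T birds. It was at 30.7, 29 and 6.85 RPKM in +T and at 2.61, 2.51 and 1.42 RPKM in -T, with no overlap. The log2 difference was 2.64 ± 0.57 (SE; adjusted p = 0.212 with limma). It was called in 1 of 14 alternatives, without the +T library 3 (limma adjusted p = 0.0341, up to 0.494 over the alternatives). ENSTGUG00000005728 was at 54.9, 132 and 31.0 RPKM in +T and at 16.6, 18.4 and 18.5 RPKM in -T, again without overlap, and the groups differed by 1.72 ± 0.43 on the log2 scale (SE; adjusted p = 0.239 with limma). Without the +T library 2 this difference was 1.17.

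Among members with lower means in +T SH, ENSTGUG00000001029 was at 126, 75.1 and 83.7 RPKM in +T and at 118, 185 and 167 RPKM in -T. The ranges overlapped, and the log2 difference was -0.73 ± 0.33 (SE; adjusted p = 0.457 with limma). ENSTGUG00000000939 was at 40.0, 27.7 and 40.8 RPKM in +T and at 51.6, 47.3 and 53.9 RPKM in -T, without overlap, and the groups differed by -0.50 ± 0.26 on the log2 scale (SE; adjusted p = 0.492 with limma). Without the +T library 2 this was -0.33.

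**Figure D4:**
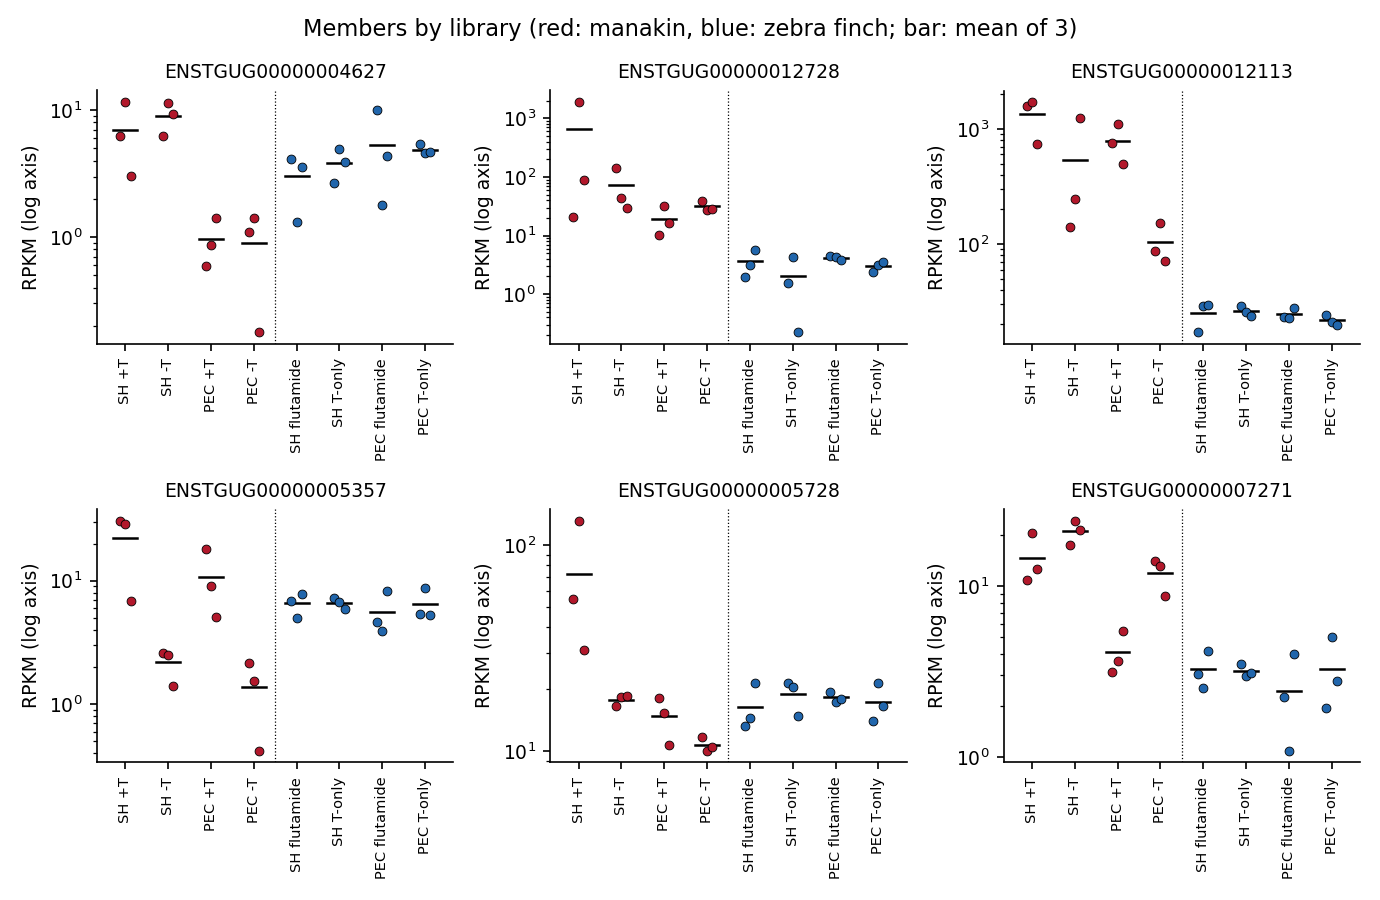
RPKM of 6 members in every library on a log axis, with SH and PEC of the manakin in red and of the finch in blue; each point is a library and each bar the mean of 3. ENSTGUG00000012113 and ENSTGUG00000005357 lie higher in +T than in -T in most manakin libraries of both muscles, and the top SH point of ENSTGUG00000012728, 1904 RPKM, is from +T bird 2.

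In manakin PEC, 0 of the 52 members were called with limma, against 0.189% of the 8989 genes tested. At an unadjusted p below 0.05, 5 members were higher in +T, against 2.86% of all genes, and 3 lower, against 10.3%. Limma-voom called 0 members, against 0.178% of all genes, with 8 below an unadjusted p of 0.05, against 12.3%. Groups did not overlap in 6 members higher in +T, against 5.02% of all genes, and in 7 lower, against 17.4%. Because the rule bounds the PEC level of a member relative to its SH level in each treatment, these counts are not free of the rule. The median difference was -0.05 over the members and -0.18 over all genes, and the member median was -0.20 to 0.02 when each PEC library was left out in turn, highest without the +T library 2 and lowest without the -T library 3. With median-ratio scaling the median of all genes was 0.0 and that of the members 0.14.

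ENSTGUG00000012113, at the levels given above, averaged 786 ± 304 RPKM in +T PEC and 104 ± 43.7 RPKM in -T PEC (SD, n = 3 each). The groups did not overlap, and the log2 difference was 2.91 ± 0.69 (SE; adjusted p = 0.121 with limma). It was called in 1 of 14 alternatives, a fit on the 6 PEC libraries alone (limma adjusted p = 0.0403, up to 0.34 over the alternatives). ENSTGUG00000005357 was at 18.1, 9 and 5.06 RPKM in +T PEC and at 2.17, 1.53 and 0.421 RPKM in -T PEC, and the groups differed by 2.22 ± 0.57 on the log2 scale (SE; adjusted p = 0.14 with limma). The groups were apart for this gene in both muscles. Both muscles came from the same birds, so these are not independent repeats.

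ENSTGUG00000007271 had the smallest p among the members with lower means in +T PEC. It was at 3.16, 3.66 and 5.48 RPKM in +T and at 13.9, 13.1 and 8.75 RPKM in -T, without overlap, and the groups differed by -1.34 ± 0.31 on the log2 scale (SE; adjusted p = 0.119 with limma). ENSTGUG00000000939, also lower in mean in +T SH, was at 16.5, 17.7 and 22 RPKM in +T PEC and at 28.3, 33.1 and 37.2 RPKM in -T PEC, and the groups differed by -0.78 ± 0.26 on the log2 scale (SE; adjusted p = 0.217 with limma). For the members as a whole, 22 had higher means in +T in both muscles and 20 lower means in both. The share of all genes with the same direction in both muscles was not computed, so nothing is read from these counts. At an unadjusted p below 0.05, 5 members were higher in both muscles. Over all 8989 genes 1.37% were higher at that p in both. No member was lower at that p in both, against 1.82% of all genes.

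The muscle difference itself was compared between +T and -T manakins by the treatment by muscle term, with the limit that the rule requires SH above PEC in each treatment. Limma called 0 of 52 members, against 0.0% of the 8989 genes tested, and 0 members were below an unadjusted p of 0.05, against 4.41% of genes in the positive and 0.667% in the negative direction. Limma-voom gave the same counts for the members, against 0.0% of all genes called and 4.13% below an unadjusted p of 0.05. With the bird as a block, limma called 0 members, against 0.0% of genes, and 1 member was below an unadjusted p of 0.05, against 6.26%. The term was positive in 40 members, 76.9% of them, against 69.8% of all genes. With median-ratio scaling it was positive in 26. ENSTGUG00000005728 came nearest, with a larger excess of SH in +T by 1.32 ± 0.61 (SE; adjusted p = 0.822 with limma), followed by ENSTGUG00000007271 at 0.82 ± 0.44 (SE; adjusted p = 0.822 with limma). Without the SH library of +T bird 2 the value of ENSTGUG00000005728 was 0.78. In the other direction were ENSTGUG00000001029 at -0.61 ± 0.47 and ENSTGUG00000012113 at -1.07 ± 0.98 (SE; adjusted p = 0.824 and 0.837 with limma). The value of ENSTGUG00000012113 was -0.17 without the SH library of -T bird 3, -0.69 without that of +T bird 3 and -1.73 without that of -T bird 1.

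**Figure D5:**
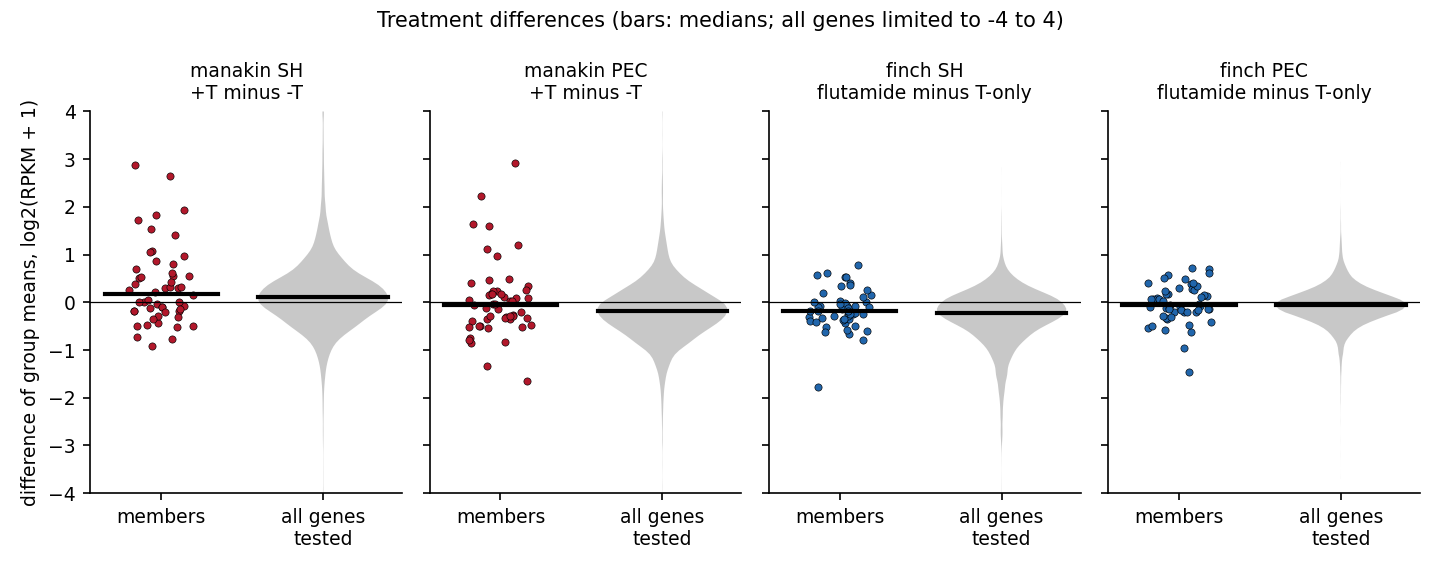
Differences between treatment groups on log2(RPKM + 1) for the 52 members (points) and all genes tested (grey shapes), with medians as bars. Each panel is a muscle of a species; the member medians are 0.18, -0.05, -0.18 and -0.06, beside 0.11, -0.18, -0.21 and -0.06 for all genes.

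In finch SH, flutamide against T-only called 0 of the 52 members with limma, against 6.8% of the 9606 genes tested. The finch bound of the rule caps the mean SH level of a member relative to its PEC level, treatments combined, so this count is not free of the rule. At an unadjusted p below 0.05, 1 member was higher in flutamide, against 1.38% of all genes, and 3 lower, against 18.1%. Limma-voom called 0 members, against 6.33% of all genes, with 5 below an unadjusted p of 0.05, against 20.9%. Groups did not overlap in 2 members higher in flutamide, against 3.83%, and in 6 lower, against 23.1%. The median difference was -0.18 over the members and -0.21 over all genes, and 0.08 and 0.01 with median-ratio scaling.

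ENSTGUG00000011739 had the smallest p there. It was at 0.696, 0.640 and 0.417 RPKM in flutamide SH and at 12.8, 3.33 and 1.71 RPKM in T-only SH. The groups did not overlap, and the T-only spread was wide. The log2 difference was -1.79 ± 0.58 (SE; adjusted p = 0.0893 with limma), and the gene was called in 1 of 14 alternatives, without the T-only library 3 (limma adjusted p = 0.0349, up to 0.405 over the alternatives). Without the T-only library 1 the difference was -1.12. This gene was also, with ENSTGUG00000012728, among the 349 genes of the library that stood apart, at 75.2 RPKM in SH of +T manakin 2, against 0.389 to 7.22 RPKM in the remaining manakin SH libraries. ENSTGUG00000011739 met the manakin SH floor of the rule only through that library, and the finch floor through the T-only birds. ENSTGUG00000013136 and ENSTGUG00000009270, at 16.5 and 17 RPKM in that library, also fell short of the manakin SH floor without it. ENSTGUG00000011436 was at 13.5, 14.0 and 13.0 RPKM in flutamide SH and at 25.1, 19.3 and 22.3 RPKM in T-only SH, without overlap, and the groups differed by -0.67 ± 0.26 on the log2 scale (SE; adjusted p = 0.154 with limma), and by -0.42 with median-ratio scaling. With higher means in flutamide SH were ENSTGUG00000006797, by 0.61 ± 0.26 (SE; adjusted p = 0.218 with limma), and ENSTGUG00000012728, by 0.78 ± 0.43 (SE; adjusted p = 0.351 with limma). ENSTGUG00000006797 was at 26.1, 19.5 and 16.9 RPKM in flutamide SH and at 12.8, 13.6 and 13.0 RPKM in T-only SH, without overlap. ENSTGUG00000012728 was at 1.97, 3.17 and 5.68 RPKM in flutamide SH and at 1.52, 4.25 and 0.223 RPKM in T-only SH, which overlap. The value of 0.223 RPKM rests on 1 read. Leaving out the flutamide SH library 3 gave a difference of 0.48, leaving out the T-only SH library 3 gave 0.26 and leaving out the T-only SH library 2 gave 1.31.

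In finch PEC, limma called 0 of the 52 members, against 0.0% of the 9606 genes tested. At an unadjusted p below 0.05, 0 members were higher in flutamide, against 2.12% of all genes, and 2 lower, against 3.4%. Limma-voom called 0 members, against 0.0% of all genes, with 2 below that p, against 5.16%. Groups did not overlap in 2 members higher in flutamide, against 3.3% of all genes, and in 1 lower, against 5.11%. ENSTGUG00000010647 was at 4.88, 5.72 and 4.38 RPKM in flutamide and at 5.56, 13.3 and 15.6 RPKM in T-only, which overlap, and the groups differed by -0.96 ± 0.32 on the log2 scale (SE; adjusted p = 0.766 with limma). ENSTGUG00000011739, which met the finch floor through the T-only birds, differed by -1.45 ± 0.58 (SE; adjusted p = 0.853 with limma). The members nearest to the threshold with higher means in flutamide were ENSTGUG00000002350 and ENSTGUG00000004164, at 0.51 ± 0.28 and 0.69 ± 0.41 (SE; adjusted p = 0.946 and 0.971 with limma). The value of ENSTGUG00000004164 was 0.28 without the flutamide library 3, 0.42 without the T-only library 1 and 1.16 without the T-only library 2.

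The treatment by muscle term in the finch called 0 of 52 members with limma, against 0.0% of the 9606 genes tested, and 0 members were below an unadjusted p of 0.05, against 0.312% of genes in the positive and 7.37% in the negative direction. The finch bound of the rule caps mean SH relative to PEC, treatments combined, so the counts for this term are not free of the rule. With limma-voom the members' counts were also 0, against 0.0% of all genes called and 5.05% below an unadjusted p of 0.05. With the bird as a block, limma called 0 members, against 0.125% of genes, and 1 member was below an unadjusted p of 0.05, against 10.7%. The term was positive in 19 members, 36.5% of them, against 33.7% of all genes. It was negative in 33 members, which means a smaller excess of SH in flutamide, and in 21 with median-ratio scaling. ENSTGUG00000012334 came nearest at -0.71 ± 0.35 (SE; adjusted p = 0.714 with limma). The standard errors set what these tests could show. Over the members the median SE of a treatment difference within a muscle was 0.40 in the manakin and 0.31 in the finch, on the log2(RPKM + 1) scale. For the treatment by muscle term it was 0.56 in the manakin and 0.44 in the finch. These SE are from the fit without a block, which did not use the pairing of muscles within a bird.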

How the data were processed

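RNA was extracted from the muscles with Trizol, and strand-specific mRNA libraries were sequenced, per the labels' protocols. The deposited values are RPKM per gene, 1 list for each library with genes above 0 only, and Ensembl release 68 identifiers, per the file headers. CASAVA, cutadapt and Bowtie 0.12.9 were used, per the submitters' processing notes; build, settings and counting are not given in the sources used here. Library sizes and whole reads were recovered from the RPKM (113221 of 113221 manakin and 136090 of 136090 finch values whole within 1e-07 reads), for depth and for limma-voom as an alternative.

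The members, lists and tests were chosen with earlier results of these data known. Members were named by the size of the mean difference (first 2), by level (the first) and by p (first 2 in each direction of a comparison). Limma 3.58.1 (R 4.3.3) was fitted to the 12 libraries of a species on log2(RPKM + 1) with a mean for each group and no block, keeping genes that reached 1 RPKM in 3 or more libraries. This scale understates changes of low genes. The script was tested on simulated data. Python 3.11.15 and pandas 2.3.3 were used elsewhere. Replicates were taken as separate birds, following the labels and the bird codes in the list names. Chi-square per degree of freedom was 42.6 to 560 in the 24 replicate pairs, so none was treated as a repeat. SH and PEC of a number in a treatment carry the same bird code and were paired; their deviations from group means correlated at -0.15 to 0.24 in the manakins and 0.28 to 0.37 in the finches. Alternatives were other filters, pseudocounts, scaling, blocks and libraries left out.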

Additional observations from a re-analysis of the deposited data

Results flagged for a closer look

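In +T manakin 2 the median difference of the members between SH and PEC was 1.46 on log2(RPKM + 1), apart from the other 5 manakins, of which the highest was at 0.94. In the same bird's SH library ENSTGUG00000012728 was at 1904 RPKM, and the next of the 6 manakin SH libraries was at 143 RPKM. Both values come from the library that held 349 genes over 8-fold above all other manakin libraries, and its part in them was not tested. Of 22 sets of 6 values examined in this way 2 stood out. Chance marks about 1 in 20 sets that are independent and unselected. These sets share libraries, and the rule and the naming of members used the same values, so that rate does not apply here.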

How the results depend on the processing

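The rule gave 43 genes with median-ratio scaling, 18 of them among the 52, 16 genes with a bound of 2 times in both treatments, and 23 with a finch ratio below 1. Leaving out single birds gave 48 to 73 genes, with 38 to 51 of the 52. The number of members called was 0 under the filters, pseudocounts, scaling, limma-voom and both replicate blocks (bird, or number across treatments) in all 6 comparisons. It was 1 in a fit on the libraries compared in manakin PEC, and 0 to 1 when single libraries were left out of manakin SH (1 without +T replicate 3) and finch SH (1 without T-only replicate 3), which lowers the number of birds; it was 0 in the other comparisons. The smallest adjusted p of a member with limma over 14 alternatives was 0.0341 to 0.494 in manakin SH, 0.0403 to 0.316 in manakin PEC and 0.0349 to 0.354 in finch SH. Same-numbered birds of the treatments did not pair (r of deviations -0.24 to 0.07), and the blocks changed no call of a member. The named members kept their direction in 374 of 374 alternatives. The filters, the blocks and the fit on the libraries compared left each difference unchanged by design. Members were also named by p in each direction, so nothing is read from this count. Members at low levels rest on few reads, down to 0 in PEC, which limits their ratios.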
